A study of Mus musculus with 18 samples.

Results

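The genes described here make, bind, take up and break down retinoids, the vitamin A derivatives, in the mouse cochlea. They were chosen by symbol, and all 9 (Rbp4, Stra6, Crabp1, Crabp2, Aldh1a1, Aldh1a2, Aldh1a3, Cyp26a1 and Cyp26b1) were found among the 46583 genes of the deposited table. RNA came from cochleae of 4-week-old mice that were cut into base, middle and apex, the regions that respond to high, intermediate and low sound frequencies. Control mice, whose genotype label is WT, were compared with mice carrying a conditional knock-out (cKO) of Fst, and all mice were labelled untreated. The product of Fst is follistatin, an extracellular antagonist of activins. The 6 groups were control base, control middle, control apex, cKO base, cKO middle and cKO apex. Per the labels, each region of each genotype was pooled, and the RNA of a pool was split into 3 technical libraries, which gives 18 libraries and n = 1 pool per group. The labels name no Cre driver, no deleted exon, no number of animals and no sex. Every p-value of a fit on libraries therefore measures the spread between libraries of 1 pool, which is technical, and no comparison here goes beyond these 6 pools. In bulk tissue, fewer cells of a type and less RNA per cell cannot be told apart.

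Retinol travels in plasma bound to retinol-binding protein, the product of Rbp4, and Stra6 encodes a membrane receptor that moves retinol from that carrier into cells. Retinal is oxidised to retinoic acid by the retinaldehyde dehydrogenases encoded by Aldh1a1, Aldh1a2 and Aldh1a3, the proteins of Crabp1 and Crabp2 bind retinoic acid in the cytoplasm, and cytochromes P450 encoded by Cyp26a1 and Cyp26b1 oxidise it for removal. Retinoic acid acts through nuclear receptors that bind direct repeats in the DNA near target genes, and it is known for its part in patterning the developing inner ear and in hair cell differentiation.

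Levels are given as CPM, the counts of a gene scaled to a common library total, and comparisons between genes as FPKM, which also divides by transcript length. Library totals ran from 24446760 to 33732726 counts, so that 3 counts, the most that 0 observed counts leave room for, correspond to 0.0889 to 0.123 CPM. Intervals and floors cover counting error only, because the reads carry no molecular identifiers. Control base replicate 3, the shallowest library, stood apart from the others of its pool, with a chi-square over genes of 1.60 and 1.46 per degree of freedom against each of them, where the other pairs of libraries of 1 pool lay between 1.19 and 1.25. Without it, no call changed for the 8 retinoid genes that passed the filter on low counts, with Rbp4 in control apex against base at -6.73 on the log2 scale, while Cyp26a1 then passed that filter. Fst (ENSMUSG00000021765, minus strand, chr13:114452290-114458951, GRCm38) had means of 2.17, 6.37 and 24.4 CPM in control base, middle and apex and of 1.86, 2.99 and 9.84 CPM in the cKO, and was called lower in cKO middle and apex but not in the base. Defining markers of the spiral ligament, stria vascularis, hair cells and supporting cells were above 0 in all 6 groups. Markers of neighbouring tissue varied between pools: the 6 cerebellar and hindbrain genes summed to 156 to 158 CPM in cKO base and at most 10.2 CPM in any other group. Xist, the RNA of X inactivation, stood at 297 to 371 CPM in the control pools and at 58.8 to 87.5 CPM in the cKO pools, so the sex mix of the pools and the loss of Fst cannot be told apart.

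Sequences around the transcript starts are given because retinoic acid receptors bind direct repeats of a hexamer and Cyp26a1 is a known target. Windows of 300 bases, from 250 before to 50 after a transcript start, came from RefSeq on GRCm38.p6, and 7 of the 9 genes had at least 1, with 12 windows in all. Crabp2 and Aldh1a3 were not matched. The motif was a direct repeat of a hexamer, either AGGTCA or its variant GGGTCA or its variant AGTTCA or its variant GGTTCA, in any combination, with 1, 2 or 5 bases between them, on either strand. Of the genes with a window, Cyp26a1 alone held a match, a repeat with 5 bases between the hexamers on the minus strand at chr19:37697776-37697792, which lies 32 to 16 bases before the start and reads AGTTCACCCAAAGTTCA on that strand. A repeat with a spacing of 5 stood in 32 of the 32851 promoter windows of the table (0.0974%), and any of the 3 spacings in 193 (0.588%). At least 1 such hexamer on its own stood in 43.7% of windows. The windows of the pair of breakdown enzymes are shown because they differ in this motif, and those of Rbp4 and Aldh1a2 because these genes differed most between regions among the carriers and the synthesis enzymes. Each is written 5′ to 3′ along the strand of its gene, and capitals mark the direct repeat.
Cyp26a1 (chr19:37697558-37697857, plus strand): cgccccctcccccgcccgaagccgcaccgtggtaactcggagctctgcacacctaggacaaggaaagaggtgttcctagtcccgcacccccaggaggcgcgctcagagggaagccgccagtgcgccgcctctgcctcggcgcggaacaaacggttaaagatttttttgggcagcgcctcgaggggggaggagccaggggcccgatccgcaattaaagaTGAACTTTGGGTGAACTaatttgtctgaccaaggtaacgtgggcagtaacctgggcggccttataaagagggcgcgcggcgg
Cyp26b1 (chr6:84593761-84594060, minus strand): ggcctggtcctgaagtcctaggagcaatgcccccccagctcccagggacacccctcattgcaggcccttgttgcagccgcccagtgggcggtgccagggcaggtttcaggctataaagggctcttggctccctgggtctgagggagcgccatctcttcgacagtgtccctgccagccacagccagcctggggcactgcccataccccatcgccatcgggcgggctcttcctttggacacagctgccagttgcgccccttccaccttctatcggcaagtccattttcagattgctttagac
Rbp4 (chr19:38124762-38125061, minus strand): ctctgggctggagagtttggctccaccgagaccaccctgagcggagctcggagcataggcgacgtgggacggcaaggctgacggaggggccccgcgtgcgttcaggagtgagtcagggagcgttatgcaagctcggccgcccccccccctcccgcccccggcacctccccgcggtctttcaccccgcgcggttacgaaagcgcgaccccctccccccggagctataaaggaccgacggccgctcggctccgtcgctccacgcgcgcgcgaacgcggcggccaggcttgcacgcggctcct
Aldh1a2 (chr9:71215539-71215838, plus strand): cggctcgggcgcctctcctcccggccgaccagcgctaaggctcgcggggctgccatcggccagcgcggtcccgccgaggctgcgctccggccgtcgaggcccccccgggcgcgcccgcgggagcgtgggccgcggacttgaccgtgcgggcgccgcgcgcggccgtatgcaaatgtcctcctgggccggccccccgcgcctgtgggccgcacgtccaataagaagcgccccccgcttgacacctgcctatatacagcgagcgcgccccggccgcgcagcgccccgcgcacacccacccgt
No match says only that these letters are absent from the window. The Aldh1a2 window is 78% G or C and the Rbp4 window shown 72%, against a median of 52.7% over the table. The other Rbp4 window (chr19:38125272-38125571) is 40.7% G or C and holds 1 hexamer, and both Cyp26 windows are at 62.3%. Neither binding nor methylation of these windows was analysed here.

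By mean CPM over the 6 groups, the 9 genes fell into 3 ranges. Aldh1a3 (190.3 CPM) and Aldh1a1 (98.0 CPM) were abundant, 6 genes lay between 2.04 CPM (Crabp1) and 27.2 CPM (Aldh1a2), and Cyp26a1 stood at 0.170 CPM. Per length, in control base, Aldh1a3 had 71.6 FPKM, Aldh1a1 56.8, Rbp4 39.7 and Cyp26b1 2.21. In cKO base Rbp4 had 54.1 FPKM, above Aldh1a3 at 46.9, so the order by CPM did not hold per length there. The genes also differed in how much they varied between groups. The highest group mean of Rbp4 was 139 times its lowest, that of Cyp26b1 3.97 times, that of Stra6 3.32 times and that of Aldh1a1 1.47 times. The plot of CPM by library shows these ranges for each gene.

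**Figure D1:**
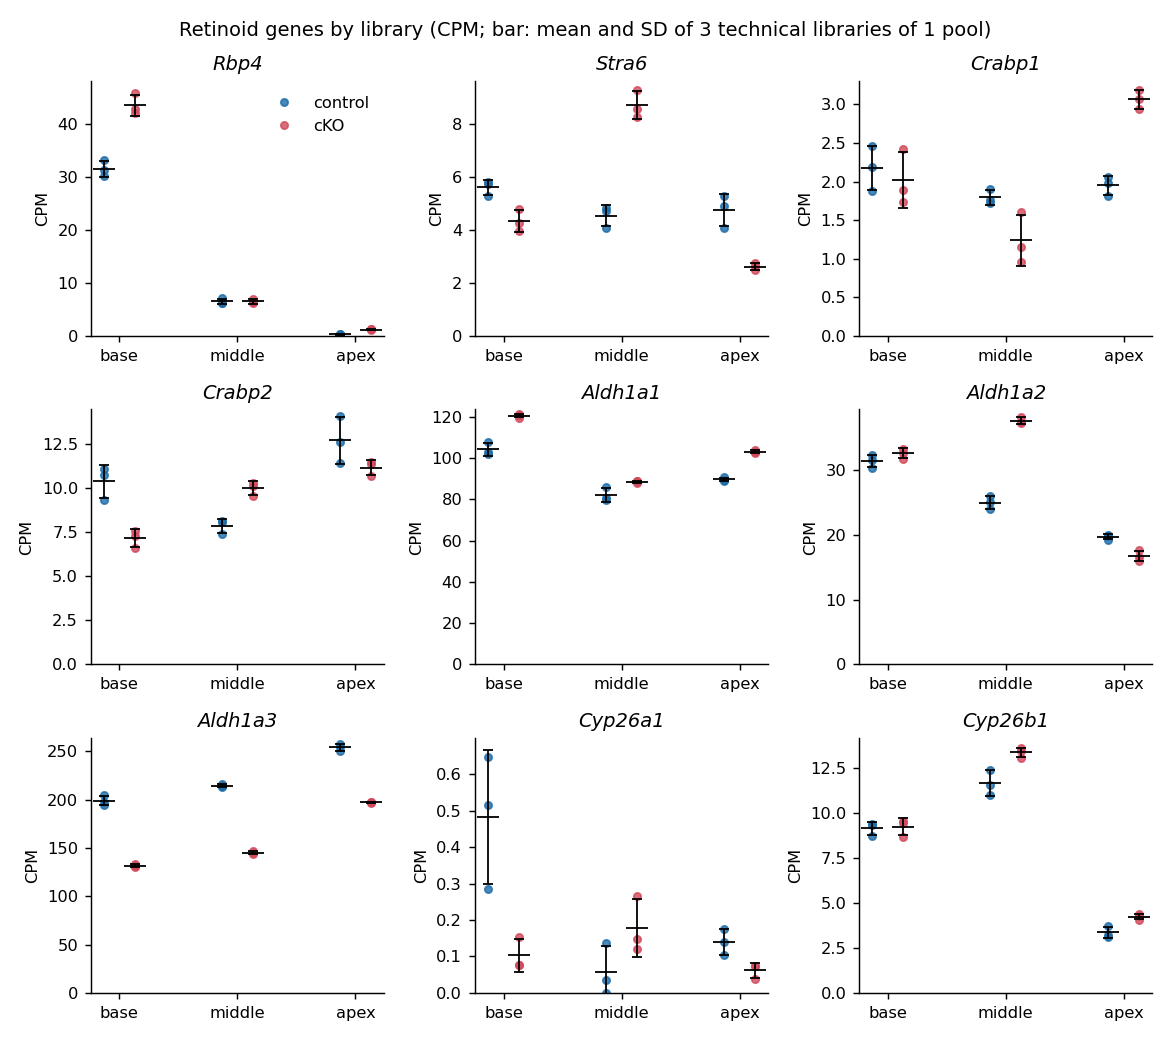
CPM of the 9 retinoid genes (vertical axes, linear, from 0) in control (blue) and cKO (red) base, middle and apex. Points are the 3 technical libraries of a pool, and bars give their mean and SD. Rbp4 declines from 31.5 CPM in control base to 0.314 in control apex, and Aldh1a3 lies lower in the cKO in every region.

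Genes were called at an edgeR adjusted p under 0.05 with an absolute log2 change of at least 1. Of the 9 genes, 8 passed the filter on low counts and Cyp26a1 did not. Between the genotypes, 0 of these 8 were called in the base, where 3.03% of all 17901 tested genes were called, and 0 in the middle, against 2.72% of all genes. In the apex 1 of 8 was called, Rbp4, against 2.04% of all genes. Median log2 changes of the 8 genes were -0.06 in the base, 0.14 in the middle and 0.03 in the apex, beside -0.016, -0.00058 and 0.0047 over all tested genes. At an adjusted p under 0.05 alone, with no fold threshold, 5 of 8 differed in the base, 7 in the middle and 7 in the apex, beside 36.1%, 35.7% and 40.6% of all tested genes. The common coefficient of variation among libraries beyond counting error, the square root of the edgeR dispersion, was 0.00988. With counting error included, the mean coefficient within groups ran from 1.22% (Aldh1a3) to 12.3% (Crabp1) over the 8 genes.

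Between the regions of the control, 2 of 8 were called in apex against base (Rbp4 and Cyp26b1, both lower in the apex), where 5.48% of all genes were called. The same 2 were called lower in control apex than in control middle, against 5.3% of all genes. Rbp4 alone was called in control middle against base, lower in the middle, against 2.73%. In the cKO, 2 of 8 were called in apex against base, again Rbp4 and Cyp26b1 as lower, where 6.6% of genes were called. In cKO apex against middle 5 of 8 were called, with Rbp4, Cyp26b1, Stra6 and Aldh1a2 lower and Crabp1 higher in the apex, against 4.6% of all genes. In cKO middle against base Rbp4 alone was called, lower in the middle, against 3.26%. The comparisons within a genotype share pools, and those between genotypes share them with these.

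**Figure D2:**
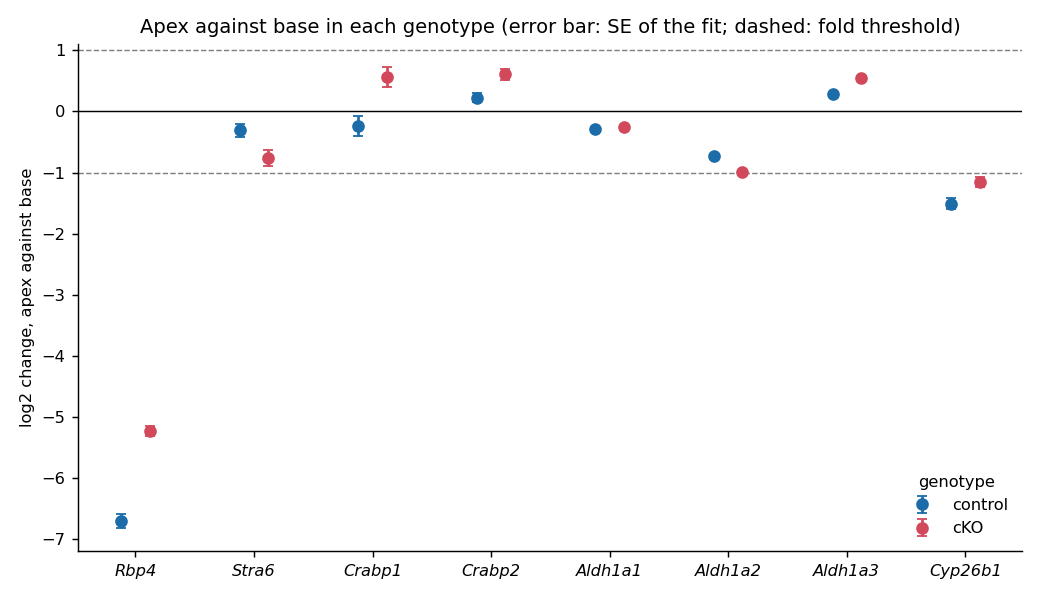
Log2 change of apex against base (vertical axis) in control (blue) and cKO (red) for the 8 tested retinoid genes. Error bars are standard errors of the edgeR fit on technical libraries, and dashed lines mark the fold threshold. Rbp4 lies at -6.70 and -5.23, Cyp26b1 at -1.51 and -1.16, and the remaining genes lie within the dashed lines, with Aldh1a2 in the cKO at -0.997.

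Rbp4, the gene of the plasma carrier of retinol, had the steepest gradient of the 9 genes. Rbp4 (ENSMUSG00000024990, protein coding, minus strand) lies at chr19:38116629-38125281 on GRCm38. Its libraries read 33.1, 31.2 and 30.1 CPM in control base, 6.26, 6.20 and 7.14 in control middle, and 0.384, 0.209 and 0.348 in control apex. The cKO libraries read 42.7, 45.8 and 42.0 CPM in the base, 6.34, 6.26 and 7.06 in the middle, and 1.23, 1.04 and 1.30 in the apex. In both genotypes each region stood apart from the next, highest in the base and lowest in the apex. The control apex libraries held only 11, 6 and 10 counts, and the cKO apex libraries 33, 28 and 35.

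Control apex against base gave a log2 change of -6.70 ± 0.12 for Rbp4 (SE, edgeR adjusted p = 1.03e-32), apex against middle -4.41 ± 0.18, and middle against base -2.30 ± 0.06. In the cKO the corresponding changes were -5.23 ± 0.09, -2.47 ± 0.13 and -2.76 ± 0.06. The genotypes differed in the apex, where the cKO was higher by 1.93 ± 0.28 (adjusted p = 4.95e-07), with all 3 cKO libraries above all 3 control libraries. On the log2(FPKM + 1) scale limma gave 0.74 (adjusted p = 1.002e-06), which is under the fold threshold. In the base the cKO was higher by 0.45 ± 0.04 (adjusted p = 5.88e-11), below the fold threshold and with no overlap of libraries. In the middle the estimate was -0.0089 ± 0.08 (adjusted p = 0.95), and the libraries overlapped. The apex-base change itself differed between the genotypes, by 1.47 ± 0.28 (cKO minus control, adjusted p = 1.18e-04), a contrast in which Rbp4 was the 1 gene of 8 called, against 2.41% of all genes. With limma on log2(FPKM + 1) that difference was 0.30 (adjusted p = 0.0588), which passed neither threshold. The comparisons of Rbp4 with its lowest values share the control apex pool and its 27 counts.

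In the control, markers of other tissues fell from base to apex as Rbp4 did, but not every list followed Rbp4 over all pools. The 8 osteoblast and bone matrix genes summed to 850 to 867 CPM in control base, 291 to 293 in control middle and 179 to 181 in control apex, and 6 of them were called lower in control apex than base. The cartilage list, also 8 genes, went from 1370 to 1415 CPM in control base to 417 to 426 in control apex, with 5 of 6 tested genes called lower, and Matn3 and Col10a1 at 0 in the control apex. The 14 meningeal genes went from 747 to 766 CPM to 323 to 334 CPM, with 11 called lower. In control apex against base 5.48% of all tested genes were called, in either direction. Between the genotypes, the airway and middle ear mucosa list of 10 genes stood at 23.5 to 26.1 CPM in control apex, with Sec14l3 and Krt5 at 0, and at 359 to 364 CPM in cKO apex, where 7 of 8 tested genes were called higher. Osteoblast genes stood at 297 to 303 CPM in cKO apex, with 2 of 8 called higher than in control apex. Between these apex pools 2.04% of all tested genes were called, in either direction. The cartilage and meningeal sums fell from base to middle to apex in both genotypes. The osteoblast sum was 538 to 543 CPM in cKO base and 633 to 646 in cKO middle, where Rbp4 means were 43.5 and 6.55 CPM. In the base that sum was lower in the cKO, while Rbp4 was higher. Col1a1 dominated that difference, at 514.8 CPM in control base and 181.3 in cKO base. Ibsp went the other way, from 52.1 to 96.4 CPM, and the other genes of the list changed by fewer CPM. The airway list stood at 15.5 to 16.0 CPM in control middle, below control apex, while Rbp4 was higher in the middle. Single genes dominated the airway sum. Foxj1 had means of 14.8 CPM in control middle and 17.5 in control apex, and Bpifa1 had 312 CPM in cKO apex. The part of these tissues in the Rbp4 values was not tested.

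Stra6, the gene of the retinol receptor, differed little between regions of the control and more between those of the cKO, with its highest level in cKO middle and its lowest in cKO apex. It lies on the plus strand at chr9:58063788-58153996 (ENSMUSG00000032327, protein coding). Control libraries read 5.75, 5.80 and 5.28 CPM in the base, 4.08, 4.82 and 4.73 in the middle and 4.09, 4.91 and 5.29 in the apex. The cKO libraries read 3.94, 4.27 and 4.77 CPM in the base, 8.58, 8.24 and 9.28 in the middle and 2.64, 2.74 and 2.48 in the apex. The cKO middle libraries lay above those of every other group, and the cKO apex libraries below them. Among the other groups, neighbours in the order of means overlapped.

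Stra6 was higher in cKO middle than in control middle by 0.92 ± 0.09 on the log2 scale (edgeR adjusted p = 3.43e-10) and lower in cKO apex than in control apex, at -0.84 ± 0.12 (adjusted p = 7.76e-07). Neither reached the fold threshold. Within the cKO, the apex lay below the middle at -1.74 ± 0.11 (adjusted p = 4.52e-16), which was called, and the middle above the base at 0.98 ± 0.10, just under the threshold. Without cKO base replicate 3 that change was 1.05, and without cKO middle replicate 2 it was 1.01, both called. The corresponding control changes were 0.02 ± 0.11 for apex against middle and -0.33 ± 0.10 for middle against base.

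The differences between these changes were tested with contrasts added after the counts had been seen. The apex-middle change of Stra6 differed by -1.76 ± 0.15 (cKO minus control, adjusted p = 1.23e-11), and the middle-base change by 1.31 ± 0.14 (adjusted p = 1.91e-09). In the apex-middle contrast 3 of 8 retinoid genes were called, Stra6 lower and Rbp4 and Crabp1 higher, against 3.6% of all genes. In the middle-base contrast Stra6 was the only one of the 8, against 4.7% of all genes. With limma on log2(FPKM + 1) the middle-base difference of Stra6 was 0.92 (adjusted p = 2.04e-05) and the apex-middle difference of Rbp4 0.72 (adjusted p = 7.27e-05), both under the fold threshold.

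Counts of Stra6 cannot be fully told apart from those of a gene on the other strand, since no source used here says whether strand was used in counting. Ccdc33 (chr9:58028677-58118823, minus strand) overlaps the first part of the annotated span of Stra6. It held 418 counts over all libraries against 2720 of Stra6. Its means were 0.609, 0.366 and 0.445 CPM in control base, middle and apex and 0.694, 1.92 and 0.568 CPM in the cKO, so that it too was highest in cKO middle. Ccdc33 held 7, 11 and 14 counts in the control middle libraries and 62, 62 and 70 in those of cKO middle, where Stra6 went from 118, 140 and 137 counts to 288, 278 and 313.

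Some of the 14 meningeal markers differed between the genotypes in the direction of Stra6 in middle and apex, and others did not. In the middle 4 of 14 were called higher in the cKO, in the apex 7 of 14 were called lower, and in the base 4 were called lower and 1 higher. Of all tested genes, 2.72%, 2.04% and 3.03% were called in these 3 comparisons, in either direction. Slc47a1, a gene of an organic cation exporter on this list, stood at 19.97, 6.25 and 0.546 CPM in control base, middle and apex and at 7.12, 20.4 and 0.259 CPM in the cKO. Slc22a6, an organic anion transporter gene, read 15.8, 9.71 and 1.88 CPM in the control and 7.13, 16.0 and 0.358 CPM in the cKO. In control apex against base these 2 genes changed by -5.25 ± 0.11 and -3.14 ± 0.10, and Stra6 by -0.31 ± 0.10. Slc13a4 of the list was higher in the cKO in every region, at 0.44 in the apex. Zic1 was higher in cKO base, at 2.35, where Stra6 was lower. The 6 cerebellar and hindbrain genes summed to 156 to 158 CPM in cKO base and to 9.33 to 10.2 CPM in control base. The part of that tissue in the Zic1 values was not tested. The apex-middle change was called lower in the cKO for 9 of the 14 meningeal genes, with a list median of -1.74 beside 0.0019 over all genes. That contrast called 3.6% of all tested genes, in either direction. Summed levels, which Zic2, Slc13a4 and Foxc1 dominate, were 591 to 601 CPM in control middle and 684 to 688 in cKO middle, and 323 to 334 in control apex and 448 to 452 in cKO apex, with no gene of the list at 0 in any group. Thus the sum was higher in cKO apex while 7 of its genes and Stra6 were lower. The part of meningeal tissue in the Stra6 values was not tested.

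**Figure D3:**
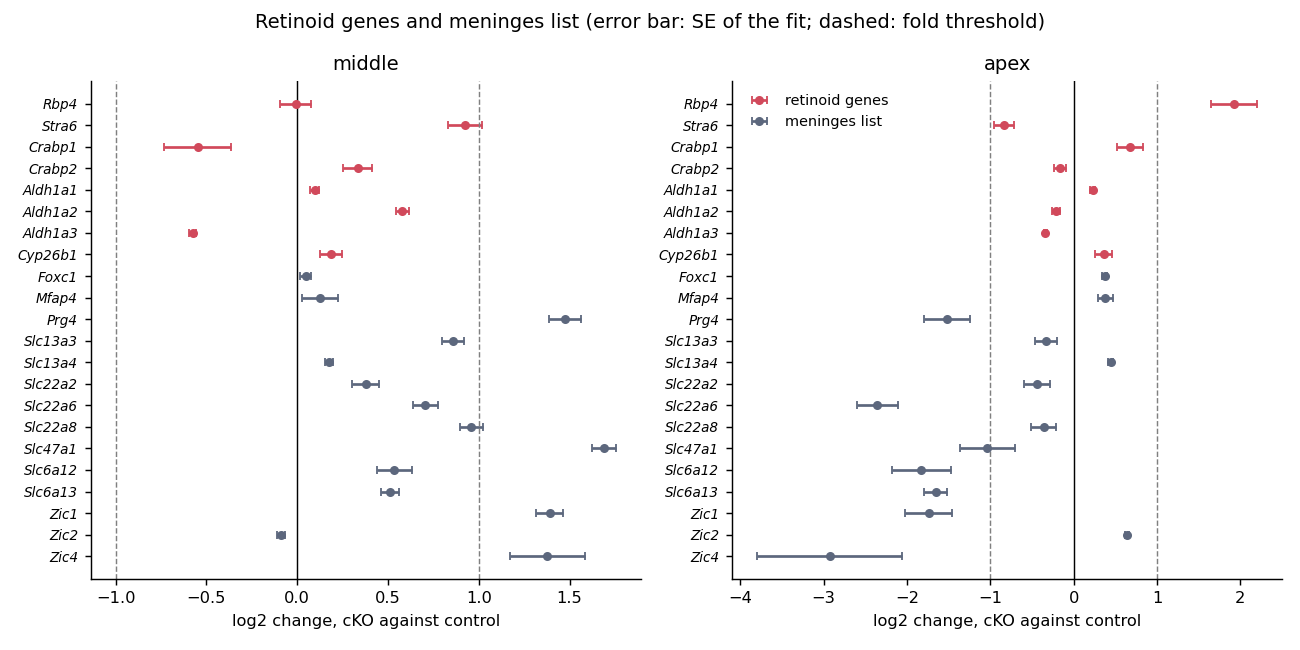
Log2 change of cKO against control (horizontal axes) in the middle (left) and apex (right) for the 8 tested retinoid genes (red) and the 14 meningeal marker genes (grey). Error bars are standard errors of the edgeR fit, and dashed lines mark the fold threshold. Stra6 lies at 0.92 in the middle and -0.84 in the apex, and Slc47a1 at 1.69 and -1.04.

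The synthesis enzymes differed from each other in both directions. Aldh1a3 (ENSMUSG00000015134, minus strand, chr7:66390890-66427517) was lower in the cKO in all 3 regions, Aldh1a1 (ENSMUSG00000053279, plus strand, chr19:20492715-20643465) was slightly higher in all 3, and Aldh1a2 (ENSMUSG00000013584, plus strand, chr9:71215789-71296243) differed by region. No genotype difference of these 3 genes reached the fold threshold.

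Aldh1a3 libraries read 194.6, 197.8 and 204 CPM in control base, 213, 214 and 216 in control middle and 250.7, 254 and 257 in control apex. In the cKO they read 129.9, 132 and 134 CPM in the base, 144, 147 and 144 in the middle and 198, 197 and 197 in the apex. Every cKO library lay below every control library of its region, and in both genotypes the apex was highest. The log2 changes were -0.60 ± 0.02 in the base, -0.58 ± 0.02 in the middle and -0.34 ± 0.02 in the apex (edgeR adjusted p from 2.24e-23 to 1.17e-17). Aldh1a3 was the 1 gene of 8 with a lower level in all 3 regions at an adjusted p under 0.05 alone, a pattern held by 3.57% of all tested genes. Apex stood above base by 0.29 ± 0.02 in the control and by 0.54 ± 0.02 in the cKO, both under the fold threshold.

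Neuronal markers moved with Aldh1a3 in some regions. The 6 spiral ganglion genes summed to 2845 to 2927 CPM in control base and 1853 to 1865 in cKO base, and to 4017 to 4040 CPM in control apex and 3010 to 3039 in cKO apex. In the middle, where Aldh1a3 differed by about as much as in the base, the sum was 3367 to 3374 CPM in the control and 3401 to 3414 in the cKO. The 5 Schwann cell genes went from 3870 to 3928 CPM to 3214 to 3253 in the base, from 4977 to 5035 to 4732 to 4770 in the middle and from 5526 to 5552 to 4244 to 4288 in the apex. None of the genes on these lists was called between genotypes, and none was at 0 in a group. Of all tested genes, 3.03%, 2.72% and 2.04% were called in base, middle and apex. The part of neurons and Schwann cells in the Aldh1a3 values was not tested in any region.

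Aldh1a1 libraries read 103, 102 and 108 CPM in control base, 80.8, 79.6 and 85.7 in control middle and 89.5, 90.6 and 88.7 in control apex. In the cKO they read 121, 121 and 120 CPM in the base, 87.9, 88.7 and 89.0 in the middle and 103, 103 and 104 in the apex. The libraries of the genotypes did not overlap in any region, although the gap in the middle was small. The log2 changes were 0.20 ± 0.02 in the base, 0.10 ± 0.02 in the middle and 0.23 ± 0.02 in the apex (edgeR adjusted p = 5.63e-09, 0.00225 and 2.17e-09). Aldh1a1 was the 1 gene of 8 with a higher level in all 3 regions at an adjusted p under 0.05 alone, held by 2.9% of all genes. In both genotypes the base was highest and the middle lowest. The pseudogene Gm6684, which lies inside Aldh1a1 on the other strand, held 23 counts in all against 50502.

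Aldh1a2 libraries read 30.3, 31.6 and 32.3 CPM in control base, 25.02, 24.01 and 25.9 in control middle and 19.8, 20.04 and 19.2 in control apex. In the cKO they read 31.7, 32.6 and 33.3 CPM in the base, 38.2, 37.5 and 37.2 in the middle and 16.0, 16.6 and 17.6 in the apex. In the control the order was base, middle, apex with no overlap between regions, while in the cKO the middle was highest. Against control, the cKO differed by 0.05 ± 0.04 in the base, where libraries overlapped, by 0.58 ± 0.04 in the middle (edgeR adjusted p = 1.47e-15) and by -0.21 ± 0.05 in the apex (adjusted p = 3.56e-04).

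Within the cKO, Aldh1a2 was called lower in the apex than in the middle, at -1.18 ± 0.04 (adjusted p = 1.73e-23). Apex against base was -0.997 ± 0.043, just inside the fold threshold, and -1.01 with RLE size factors or DESeq2, which passed it. It also passed without cKO base replicate 1 (-1.01) and without cKO apex replicate 3 (-1.03). The control change was -0.74 ± 0.04. The direction of the genotype difference in middle and apex was that of Stra6 and of some meningeal markers, among them Slc47a1 and Slc22a6. Other markers of that list were higher in cKO apex: Slc13a4 (0.44), Foxc1 (0.37), Zic2 (0.64) and Mfap4 (0.38). In the base Slc47a1 and Slc22a6 were called lower in the cKO, where Aldh1a2 differed by 0.05. Over the 6 group means Aldh1a2 had a Pearson r of 0.81 with Stra6 and of 0.85 with Cyp26b1. The 6 points are 1 pool each, and 3 share a genotype. The part of meningeal tissue in the Aldh1a2 values was not tested.

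Per length, the 3 dehydrogenase genes together made 131.6 to 144 FPKM in the control regions and 115 to 133 in those of the cKO. Aldh1a3 made up 49.8%, 57.6% and 61.2% of this sum in base, middle and apex of the control, with SDs over libraries of at most 0.694 percentage points. In the cKO its shares were 36.5%, 43.5% and 53.1%. Aldh1a1 took 39.5%, 33.3% and 32.4% in the control and 51.1%, 40.9% and 41.0% in the cKO, so that it was the larger of the pair in cKO base, where Aldh1a3 was the larger in control base. Aldh1a2 took 10.7%, 9.12% and 6.41% in the control and 12.4%, 15.6% and 5.97% in the cKO. These are shares of RNA, and enzyme activity was not measured.

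**Figure D4:**
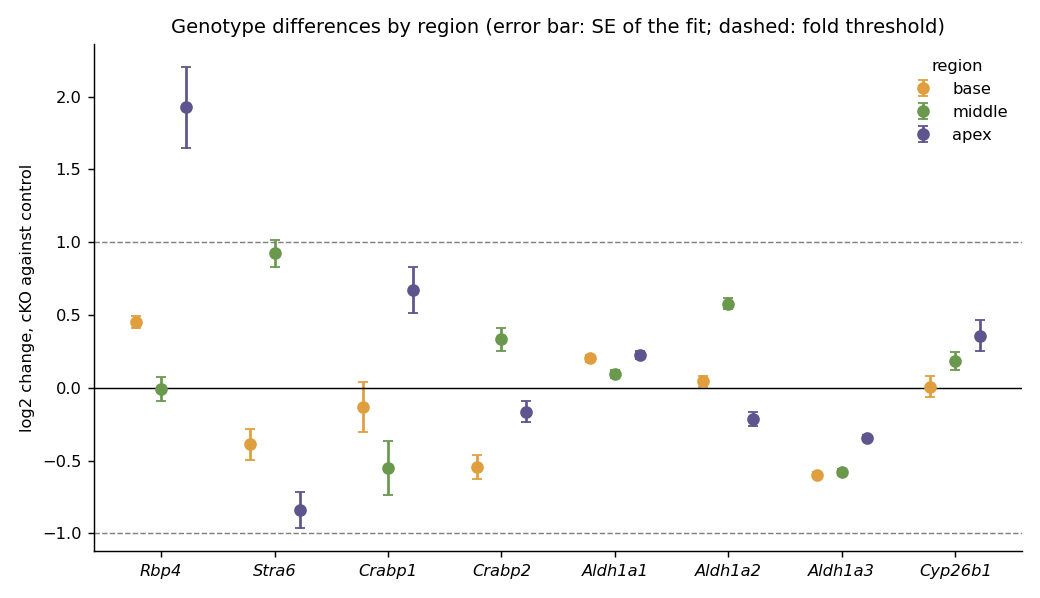
Log2 change of cKO against control (vertical axis) in base (orange), middle (green) and apex (purple) for the 8 tested retinoid genes. Error bars are standard errors of the edgeR fit on technical libraries, and dashed lines mark the fold threshold. Rbp4 in the apex (1.93) is the only point outside the dashed lines, and the 3 points of Aldh1a3 lie between -0.60 and -0.34.

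Of the binding protein genes, Crabp1 had the lowest mean of the 8 tested genes and Crabp2 stood at 9.87 CPM. The genotype differences of both changed sign between regions. Crabp1 (ENSMUSG00000032291, plus strand, chr9:54764748-54773110) libraries read 2.18, 2.46 and 1.88 CPM in control base, 1.90, 1.76 and 1.72 in control middle and 1.82, 2.05 and 1.98 in control apex. In the cKO they read 1.74, 2.43 and 1.89 CPM in the base, 0.953, 1.16 and 1.60 in the middle and 2.94, 3.18 and 3.07 in the apex. The 3 cKO apex libraries, with 79, 86 and 83 counts, lay above all others, and the cKO middle libraries, with 32, 39 and 54 counts, below all others. Against control, Crabp1 differed by 0.67 ± 0.16 in cKO apex (edgeR adjusted p = 7.55e-04) and by -0.55 ± 0.19 in cKO middle (adjusted p = 0.0191), both under the fold threshold.

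Within the cKO, Crabp1 was called higher in the apex than in the middle, at 1.30 ± 0.17 (edgeR adjusted p = 4.67e-08). In the control that change was 0.08 ± 0.17 with overlapping libraries. The difference between these changes was 1.22 ± 0.24 (adjusted p = 1.14e-04), in a contrast added after the counts had been seen. With limma on log2(FPKM + 1) these values were 0.99 and 0.92 (adjusted p = 3.01e-06 and 3.79e-04), both under the fold threshold. Crabp1 was highest in cKO apex and lowest in cKO middle, where Stra6 was lowest and highest, and the groups between these did not follow one order in reverse of the other. Crabp1 and Stra6 had a Pearson r of -0.92 over the 6 group means, the lowest of all pairs of the 9 genes.

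Crabp2 (ENSMUSG00000004885, plus strand, chr3:87948666-87953376) libraries read 9.32, 11.1 and 10.8 CPM in control base, 8.06, 8.13 and 7.38 in control middle and 14.1, 12.6 and 11.4 in control apex. In the cKO they read 7.27, 6.58 and 7.58 CPM in the base, 10.1, 9.55 and 10.3 in the middle and 11.3, 11.5 and 10.7 in the apex. The apex was highest in both genotypes, and the lowest region was the middle in the control and the base in the cKO. The cKO was lower in the base by -0.54 ± 0.08 on the log2 scale (edgeR adjusted p = 2.26e-06) and higher in the middle by 0.33 ± 0.08 (adjusted p = 9.42e-04), and in the apex the libraries overlapped (-0.16 ± 0.07, adjusted p = 0.0717). The middle-base change differed between the genotypes by 0.88 ± 0.12, which was not called.

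Of the breakdown enzymes, Cyp26b1 was measured well and Cyp26a1 was near the limit of detection. Cyp26b1 (ENSMUSG00000063415, minus strand, chr6:84571414-84593908) libraries read 9.38, 8.74 and 9.37 CPM in control base, 11.6, 11.02 and 12.4 in control middle and 3.74, 3.13 and 3.23 in control apex. In the cKO they read 9.59, 9.47 and 8.70 CPM in the base, 13.5, 13.6 and 13.1 in the middle and 4.39, 4.30 and 4.07 in the apex. Both genotypes shared the order of regions, with the middle highest and the apex lowest, and within a genotype no libraries of different regions overlapped. Apex against base was -1.51 ± 0.09 in the control and -1.16 ± 0.09 in the cKO (edgeR adjusted p = 8.45e-17 and 6.93e-14), and apex against middle was -1.84 ± 0.08 and -1.66 ± 0.08, all called. The cKO was higher by 0.36 ± 0.11 in the apex (adjusted p = 0.00626) and by 0.18 ± 0.06 in the middle (adjusted p = 0.0167), and the base did not separate (0.0067 ± 0.07, adjusted p = 0.957). The apex-base change differed by 0.35 ± 0.13 between the genotypes, under the fold threshold. On the log2(FPKM + 1) scale, which compresses low genes, limma gave -0.85 for control and -0.62 for cKO apex against base, both under the threshold, and -0.97 for cKO apex against middle, also under it.

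Cyp26a1 (ENSMUSG00000024987, plus strand, chr19:37697798-37701536) held 16, 20 and 7 counts in the control base libraries, 0, 4 and 1 in control middle and 5, 4 and 3 in control apex. The cKO libraries held 2, 4 and 2 counts in the base, 4, 9 and 5 in the middle and 2, 2 and 1 in the apex. All 3 control base libraries lay above those of cKO base, and nearly all other libraries were at or close to the floor of 3 counts. Its means were 0.483 CPM in control base and at most 0.178 in any other group. It failed the filter on low counts and has no test in the fit on libraries. With no filter it was called lower in cKO base than in control base, at -2.22 (edgeR adjusted p = 0.00157), and lower in control middle and control apex than in control base, at -3.03 and -1.85 (adjusted p = 4.34e-05 and 0.00318). Cyp26b1, whose window held no such repeat, had the higher CPM in every library.

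The fit on the 6 summed pools takes what region and genotype leave unexplained as its error, with 2 residual degrees of freedom, and all 9 genes passed its filter. For genotype over the 3 regions it called 0 of the 9 and 0.0% of all 19447 genes, with 2132 genes at an unadjusted p under 0.05, and DESeq2 called 36 genes, none of them among the 9. Aldh1a3 had the lowest adjusted p of the 9, at a log2 change of -0.51 ± 0.07 (edgeR adjusted p = 0.183), and was lower in 3 of 3 regions. Stra6 was at -0.09 ± 0.36 and Rbp4 at 0.52 ± 0.31. For apex against base over both genotypes, 2 of 9 were called, against 2.04% of all genes. These were Rbp4 at -5.75 ± 0.44 (adjusted p = 0.0131) and Cyp26b1 at -1.33 ± 0.12 (adjusted p = 0.0141), each lower in the apex in both genotypes. Aldh1a3 was at 0.42 ± 0.08 (adjusted p = 0.052) and Aldh1a1 at -0.27 ± 0.05 (adjusted p = 0.0562). Base, middle and apex of a genotype could stem from shared animals, and the spread between animals is not measured here.

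Of the rest of the pathway, 65 genes on 5 lists were counted. Beside them, 3.03%, 2.72% and 2.04% of all tested genes were called between genotypes in base, middle and apex. In control apex against base 5.48% were called. These shares are in either direction. None of the 6 nuclear receptor genes for retinoids was called between genotypes in any region or between control apex and base. Of 14 tested genes for the interconversion of retinol and retinal, 1 was called higher in cKO base, 0 in the middle and 1 higher in the apex, and 2 were lower in control apex than base. Dhrs9, a gene of a short-chain dehydrogenase, held 10 counts in control base and 47 in cKO base (2.33 ± 0.40, edgeR adjusted p = 1.35e-05). Adh7, a gene of an alcohol dehydrogenase that oxidises retinol, held 2 counts over the 3 control apex libraries and 75 over those of cKO apex (adjusted p = 7.64e-10), in the comparison in which the airway list went from 23.5 to 26.1 CPM to 359 to 364 CPM. The part of airway tissue in the Adh7 counts was not tested. Rdh8, a retinol dehydrogenase gene, held 27 counts in control base and 1 in control apex, and Adh7 held 19 and 2.

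Of 10 tested genes for transport, storage and carotenoid cleavage none was called between genotypes. In control apex against base Rbp7, which encodes a cellular retinol-binding protein, was higher at 10.9 against 4.54 CPM (1.19 ± 0.09, edgeR adjusted p = 3.23e-13), and Lpl, which encodes lipoprotein lipase, was lower at 7.39 against 15.0 CPM (-1.10 ± 0.07, adjusted p = 1.05e-15). Both tested genes of the remaining breakdown list were not called. Of 13 tested genes known to respond to retinoic acid, 0 were called in base and middle between genotypes and 1 in the apex, against 2.04% of all genes. This was Hoxa2, a homeobox gene of the hindbrain and branchial arches. Hoxa2 went from 10 counts in control apex to 25 in cKO apex (1.40 ± 0.54, adjusted p = 0.0367). It was also the 1 gene of that list called in control apex against base, at 0.111 against 3.89 CPM (-5.08 ± 0.30), and both comparisons share the control apex pool.

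The genes closest to each retinoid gene in pattern were taken by the root mean square difference of centred log2(mean CPM + 0.5) over the 6 groups, among 15748 genes, as a description over 6 pools of 1 kind of library. Aldh1a3 was closest to Slc17a7, which encodes a vesicular glutamate transporter (0.0358, Pearson r 0.99), Ntng1 and Cpne9. Slc17a7 stood at 305, 348 and 415 CPM in control base, middle and apex and at 217, 239.8 and 324 CPM in the cKO. Aldh1a1 was closest to Pkp2, Fzd9 and Arg2 (0.0395 to 0.0563), and Aldh1a2 to Mro, Gm28048 and Gbp8 (0.0614 to 0.111). Stra6 was closest to Ncam2, Gpc3 and Angpt1 (0.142 to 0.170), all 3 highest in cKO middle and lowest in cKO apex. Cyp26b1 was closest to Syt13, Cxcl14 and Col6a1 (0.178 to 0.263), Crabp1 to RP24-230J14.10, Myl1 and Tmem238 (0.124 to 0.125), and Crabp2 to Baiap3, Chrna1 and Fbn2 (0.0680 to 0.0777). No gene came near Rbp4: the closest, Sult5a1, Sfrp4 and Gm11747, differed by 0.890 to 0.964, and with a pseudocount of 0.1 only 1 of them stayed among the closest 3.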

How the data were processed

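RNA was sequenced from 6 cochlear pools, with 3 technical libraries each and 18 in all, after ribosomal RNA depletion with the TruSeq chemistry per the labels. STAR 2.5.2b and Cuffdiff 2.2.1 and the builds GRCm38 and mm10 are listed in the submitters' processing notes, with no role. The expected counts per gene were deposited by the authors and are not scaled, and 89.2% to 89.9% of them were whole within a tolerance of 1e-06. The counting tool and its use of strand are not given in the sources used here. The FPKM values per library were also computed and deposited by the authors.

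Rounded counts were tested with edgeR 4.0.16 under R 4.3.3. The 17901 genes kept by filterByExpr were scaled with TMM factors between 0.977 and 1.03 and entered a two-sided quasi-likelihood F test with a mean per group and 12 residual degrees of freedom. Benjamini-Hochberg adjustment ran over every tested gene, and genes were called at an adjusted p under 0.05 and an absolute log2 change of at least 1. A second fit used the 6 summed pools with region and genotype as factors. Errors after log2 changes are standard errors of the fit over 3 libraries per group, or of the fit on summed pools. Each was computed as the absolute log2 change divided by the square root of its F statistic. CPM was computed on plain library totals. Libraries of a pool differed by a chi-square of 1.19 to 1.60 per degree of freedom over genes with at least 20 counts and were kept apart, since merging would leave no spread. The scripts were tested on simulated data. Positions came from GENCODE M21 and promoter windows from RefSeq, both on GRCm38.

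The members and all lists were chosen with earlier results of these data known. All 9 members are described. Genes of the 5 pathway lists are named when called in a genotype comparison or in control apex against base, at most 6 per list, and the 3 genes of closest pattern are named per member. The 18 marker lists were used as summed CPM and counts of calls, and those that moved beside a member are given. The apex-middle and middle-base contrasts between genotypes were added after the counts had been seen. The alternatives were RLE size factors, DESeq2 1.42.0, limma 3.58.1 on log2(FPKM + 1), no filter, no fold threshold, a replicate block, and each library left out in turn.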

Additional observations from a re-analysis of the deposited data

Results flagged for a closer look

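Of the 8 tested retinoid genes, 3 were called in at least 1 of the contrasts of region differences between the genotypes. The apex-base, apex-middle and middle-base contrasts called 2.41%, 3.6% and 4.7% of all 17901 tested genes. At an edgeR adjusted p under 0.05 alone, 7, 7 and 5 of the 8 differed, beside 4439, 6796 and 5985 of all tested genes. The apex-base change of Rbp4 was larger in the cKO than in the control by 1.47 ± 0.28 on the log2 scale, that is, less negative (-5.23 against -6.70, edgeR adjusted p = 1.18e-04), and its apex-middle change by 1.94 ± 0.29 (-2.47 against -4.41, adjusted p = 1.28e-06). The apex-middle change of Stra6 was lower by -1.76 ± 0.15 (-1.74 against 0.02, adjusted p = 1.23e-11), and its middle-base change higher by 1.31 ± 0.14 (0.98 against -0.33, adjusted p = 1.91e-09). The apex-middle change of Crabp1 was higher by 1.22 ± 0.24 (1.30 against 0.08, adjusted p = 1.14e-04). With limma on log2(FPKM + 1), the Rbp4 differences were 0.30 (adjusted p = 0.0588) and 0.72, the Stra6 middle-base difference 0.92 and the Crabp1 difference 0.92, all under the fold threshold, while the apex-middle difference of Stra6 passed. All rest on 1 pool per group. The contrasts with the middle were added after the counts had been seen.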

How the results depend on the processing

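RLE size factors and a replicate block changed no count of calls by over 1.5 times. The block stood for the library numbers, which do not pair the libraries: deviations of same-numbered libraries correlated at -0.033 to 0.046 over 45 pairs. RLE and DESeq2 each added 1 call among the retinoid genes, Aldh1a2 in cKO apex against base. DESeq2 called 36 genes for genotype over the summed pools, and the fit with no filter 6, in place of 0. With no filter Cyp26a1 was added, giving 1 called member in cKO base against control base, 2 in control middle against base and 2 in the middle-base contrast. Cyp26a1 was then also called in control apex against base.

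With an adjusted p alone, the genes called were 6459, 6385 and 7266 between genotypes in base, middle and apex (members 5, 7 and 7), 9396, 8139 and 5647 in control apex against base, apex against middle and middle against base (members 7, 6 and 7), 9895, 9115 and 8310 in the same comparisons of the cKO (members 8, 7 and 8), 4439, 6796 and 5985 in the apex-base, apex-middle and middle-base contrasts between genotypes (members 7, 7 and 5), and 1372 for apex against base over the pools.

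With limma on log2(FPKM + 1) they were 122, 111 and 46 between genotypes, 253, 203 and 84 in the control (1 member in apex against base), 311, 203 and 152 in the cKO (members 1 and 3 in apex against base and apex against middle), and 111, 170 and 246 in the contrasts (members 0, 1 and 0). No member was called in cKO apex against control apex, where Rbp4 was at 0.74. Also under the threshold were Cyp26b1 in control apex against base (-0.85) and in cKO apex against base (-0.62) and middle (-0.97), Crabp1 in cKO apex against middle (0.99) and in the apex-middle contrast (0.92), Rbp4 in the apex-base (0.30) and apex-middle (0.72) contrasts, and Stra6 in the middle-base contrast (0.92). That scale compresses low genes.

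Leaving out 1 library moved the members called from 0 to 1 at most in cKO base and in cKO middle against control. The members called lay between 1 and 2 in control middle against base, in cKO middle against base and in the middle-base contrast. They ran from 2 to 3 in control apex against base, control apex against middle and cKO apex against base, and from 3 to 4 in the apex-middle contrast. The added gene was Cyp26a1, which then passed the filter, with 2 exceptions. It was Stra6 in cKO middle against base and Aldh1a2 in cKO apex against base. The filter asks for as many libraries as the smallest group holds, so leaving out 1 library eased it. Cyp26a1 then passed only through control base replicates 1 and 2, with 16 and 20 counts. Its calls between other groups rest on libraries with 0 to 9 counts. The pools' genotype count ran from 0 to 1, the latter without cKO base replicate 1. With deposited FPKM in place of CPM, 4 of 6 groups kept their rank for Aldh1a1 and for Stra6, and all 6 for the remaining genes. Signs turned only for values near 0: Cyp26b1 in the base (-0.028 to 0.048), Rbp4 in the middle (-0.065 to 0.059, and 0.024 with limma), Stra6 in control apex against middle (-0.062 to 0.12) and Crabp1 over the pools (-0.059 to 0.058). Rbp4 in cKO apex against control ran from 1.71 to 2.10. The counts of Cyp26a1 are too few to separate most groups at this depth.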
